A study of Homo sapiens with 83 samples.

Results

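SKNAS N-MYC-ER is a human neuroblastoma cell line that carries N-MYC fused to the ligand-binding part of the estrogen receptor. The fusion is made at all times and moves to the nucleus when 4-hydroxytamoxifen (4OHT) is given. MYC-ON cells had received 4OHT and MYC-OFF cells its ethanol vehicle. All cells were then given dexamethasone, which aligns the circadian clocks of a culture, and polyadenylated RNA was collected every 4 h, with circadian time (CT) given in hours from dexamethasone. The comparison took the 13 MYC-ON libraries from CT24 to CT72 and the 13 MYC-OFF libraries of the same CTs, which are 26 of the 83 libraries of the series. Here they form 1 time series per condition, so the time points stand as replicates and every p-value measures the spread between time points of 1 experiment. Both groups share the transgene and the dexamethasone, and MYC-ON differs by the drug as well as by nuclear N-MYC, so these cannot be told apart within this line. The data ask which genes were higher or lower once N-MYC was active, and which of those changes were present whichever way the libraries were scaled.

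N-MYC is one of the MYC family of transcription factors. It pairs with MAX and binds E-boxes, DNA elements with the core CACGTG, at a large share of active promoters. MYC proteins are best known for raising genes of ribosome assembly, translation and nucleotide synthesis and for lowering genes of adhesion, extracellular matrix and differentiation. In neuroblastoma, a tumour of the sympathetic nervous lineage, amplification of MYCN marks aggressive disease, and the cells lie between an adrenergic state, kept by factors such as PHOX2A, HAND2 and GATA3, and a mesenchymal state that is richer in vimentin and matrix.

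Levels are TPM (transcript abundance per unit of length, scaled to the same total in every library), given as the median of a group's 13 libraries with the lowest and highest in parentheses. Changes are differences in log2(TPM + 1), MYC-ON minus MYC-OFF, with the standard error (SE) and the adjusted p of limma, and understate the change of genes near 0 TPM. A gene is said to have risen or fallen where adjusted p was at most 0.05 and the change at least 0.15 in the same direction both on TPM and after rescaling each library by the median of its ratios to a common reference.

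The libraries themselves differed. The median gene stood at 3.91 ± 0.53 on the log2(TPM + 1) scale in MYC-OFF and at 3.52 ± 0.48 in MYC-ON (SD, n = 13 each), and it was lower in MYC-ON at 10 of 13 CTs (exact sign-flip permutation test, two-sided, p = 0.0403, or 0.209 after adjustment over 6 library measures). Of the MYC-OFF libraries, 9 had a median of at least 3.8 and 3 were under 3.3, against 3 and 4 in MYC-ON. A slope on transcript length was fitted, together with GC content, to each library's deviation from the mean of the 26 libraries. It averaged 0.067 log2 units per doubling of length in MYC-OFF and -0.067 in MYC-ON, values that the centring makes equal and opposite. The difference was -0.133 (exact sign-flip p = 0.0698, 0.209 after adjustment). The median change over the 13868 genes tested was -0.28 on TPM and 0.01 after rescaling. RNA quality and depth of single libraries are not in the files, so the part of these differences in the changes below was not tested beyond the alternative scalings.

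On TPM, 972 genes (7.01%) were at least 1.5-fold higher in MYC-ON and 3299 (23.8%) at least 1.5-fold lower. After rescaling it was 2055 (14.8%) and 1804 (13%). At the 0.15 threshold, 1930 (13.9%) were higher and 4735 (34.1%) lower on TPM, against 3679 (26.5%) and 3447 (24.9%) after rescaling. Scaling thus moved the balance, since 29% of the genes called at this threshold were higher on TPM and 51.6% after rescaling. It turned no gene called at that threshold on TPM into a call in the other direction. Nearly every TPM rise of 1.5-fold was also called after rescaling (99.9%), whereas 54.7% of the TPM falls were. In reverse, 100% of the 1.5-fold falls after rescaling were also called on TPM, but 47.3% of the rises were. Rescaling moved changes upwards, so these shares do not rank rises above falls in reliability. The genes called 1.5-fold on both scales were 971 higher (7%) and 1804 lower (13%), and at the 0.15 threshold 1929 rose (13.9%) and 3447 fell (24.9%). When the same call was also asked of 4 further fits (the library median as a covariate, quantile normalization, removal of the length trend, and bands of library median in place of CT), 745 genes were higher (5.37%) and 1033 lower (7.45%). Genes that were 1.5-fold lower on both scales had long transcripts, with a median of 4300.5 bases, against 2447 for those 1.5-fold higher and 3491 for all genes tested.

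**Figure D1:**
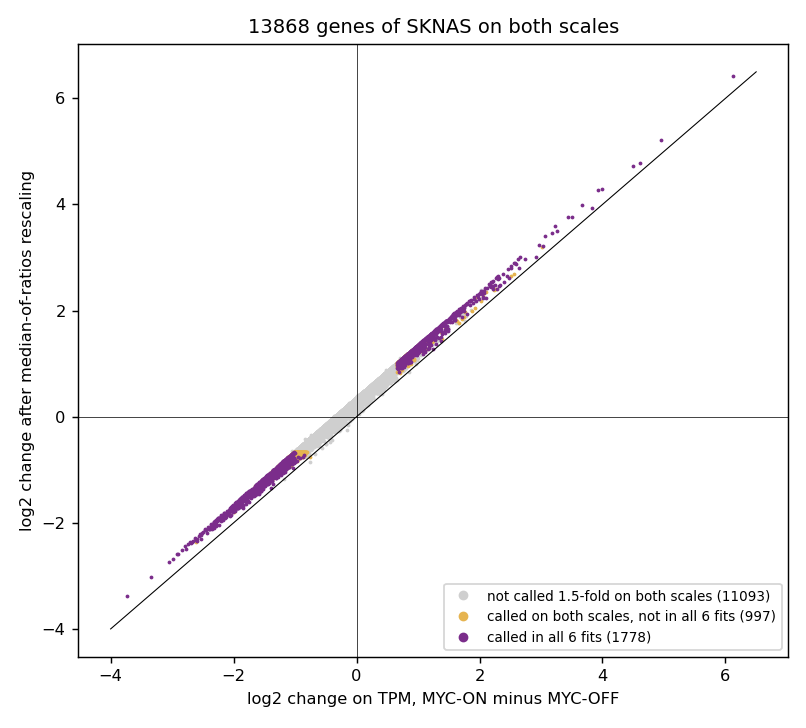
Each point is 1 of 13868 genes, with its log2 change (MYC-ON minus MYC-OFF) on deposited TPM on the x axis and after median-of-ratios rescaling on the y axis, and the diagonal marks equal values. The cloud lies above the diagonal because rescaling lifts MYC-ON, and colours separate genes not called 1.5-fold on both scales, genes called on both scales, and the 745 higher and 1033 lower genes called in all 6 fits.

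The fusion's own transcript and the endogenous MYC were read first. MYCN, whose reads come from the transgene and the native gene together, stood at 651 TPM (29.1 to 987) in MYC-OFF and 309 TPM (13.1 to 1046) in MYC-ON. The groups overlapped over nearly the whole range, and the change of -0.67 (SE 0.54, adjusted p = 0.321) was not called. It was 0.65 with the library median as a covariate, 0.16 with library bands in place of CT and 0.029 in the libraries with a median of at least 3.8. 4OHT acts on where the fusion protein is, so the transcript is no check of the labels. MYC, the related gene that active MYC proteins are known to repress, was at 16.1 TPM (4.12 to 23.1) in MYC-OFF and 1.6 TPM (0.246 to 3.13) in MYC-ON. Every MYC-ON library was below every MYC-OFF library, and the change was -2.53 (SE 0.2, adjusted p = 9.38e-08).

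Among markers of other cells that the cultures could hold, endothelial genes were all under the filter of a mean of 1 TPM, and so were 8 of 10 blood, 6 of 8 epithelial and 7 of 8 Schwann and melanocyte markers. The 2 blood genes above it fell: PTPRC (CD45) from 102 TPM (13 to 132) to 17.7 TPM (3.13 to 59.7) and the lysosomal CD68 from 141 TPM (71.1 to 179) to 50.8 TPM (23.4 to 78.4). CD3E and MS4A1 were listed at 0 in all 26 libraries, and the summed level of the 10 blood markers ranged from 86.5 to 312 TPM in MYC-OFF and from 27.2 to 136 TPM in MYC-ON. Of the epithelial markers, the tight junction protein CLDN4 fell from 37.6 TPM (13.4 to 50.8) to 6.64 TPM (4.58 to 9.06) without overlap, and the summed level of all 8 went from a median of 41.7 TPM (21.3 to 56.8) to 10.3 TPM (8.12 to 14.1). That sum is mostly CLDN4. EPCAM, which was under the filter, went the other way without overlap, from 0.0974 TPM (0 to 0.347) to 1.10 TPM (0.372 to 2.46). The part of these cell type markers in the changes of other genes was not tested. Of the factors that define the neuroblastoma states, PHOX2A was at 234 TPM (139 to 287) and VIM at 1583 TPM (712 to 1881) in MYC-OFF, while TH and DBH were under the filter.

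Because the E-box is the element that N-MYC and MAX bind, the 250 bases before the start of rising genes were searched for CACGTG (a palindrome, so 1 search covers both strands). RefSeq promoter sequences (GRCh38.p14) were matched for 9962 of the 13868 genes tested, and 9.24% of these windows held the motif. Of the 12 genes with the largest rises 10 were matched and 1 held it, and of all 67 named rising genes 51 were matched and 6 held it. Among all matched genes called 1.5-fold on both scales, 88 of 667 higher (13.2%) and 74 of 1289 lower (5.74%) held it. The sequence GACGTC, made of the same letters, was in 9.6% and 5.43% of these windows. The differences between these shares were not tested. The windows of the 2 genes that rose most, and of 4 with the motif, are printed 5′ to 3′ on the gene's strand with CACGTG in capitals, to show where it lies. NPW is at chr16:2019535-2019784 (plus strand), JAG2 at chr14:105168777-105169026 (minus), AMN at chr14:102922413-102922662 (plus), BHLHE41 at chr12:26125038-26125287 (minus), SLC7A5 at chr16:87869508-87869757 (minus) and HSPE1 at chr2:197500129-197500378 (plus).
NPW: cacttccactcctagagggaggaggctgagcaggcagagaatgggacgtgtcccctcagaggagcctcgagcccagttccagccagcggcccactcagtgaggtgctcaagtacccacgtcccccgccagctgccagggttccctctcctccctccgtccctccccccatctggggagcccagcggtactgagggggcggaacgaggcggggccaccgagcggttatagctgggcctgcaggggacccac
JAG2: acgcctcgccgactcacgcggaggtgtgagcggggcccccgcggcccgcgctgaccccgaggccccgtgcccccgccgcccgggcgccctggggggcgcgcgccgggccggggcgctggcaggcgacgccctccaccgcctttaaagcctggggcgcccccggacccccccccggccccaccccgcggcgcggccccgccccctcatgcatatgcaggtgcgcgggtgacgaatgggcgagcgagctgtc
AMN: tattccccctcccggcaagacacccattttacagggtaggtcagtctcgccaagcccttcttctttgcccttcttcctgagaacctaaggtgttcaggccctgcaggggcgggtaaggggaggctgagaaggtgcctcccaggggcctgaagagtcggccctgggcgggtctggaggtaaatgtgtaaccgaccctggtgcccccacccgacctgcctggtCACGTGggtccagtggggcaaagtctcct
BHLHE41: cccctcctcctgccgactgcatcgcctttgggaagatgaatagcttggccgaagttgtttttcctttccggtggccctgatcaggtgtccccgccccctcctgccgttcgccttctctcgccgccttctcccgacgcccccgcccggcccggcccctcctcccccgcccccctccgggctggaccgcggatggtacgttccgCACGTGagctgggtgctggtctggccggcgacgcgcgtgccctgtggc
SLC7A5: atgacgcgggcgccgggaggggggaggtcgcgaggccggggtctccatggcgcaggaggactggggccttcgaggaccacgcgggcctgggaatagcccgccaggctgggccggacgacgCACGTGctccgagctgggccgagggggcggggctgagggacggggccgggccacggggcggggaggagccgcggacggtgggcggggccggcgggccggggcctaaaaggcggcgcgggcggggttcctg
HSPE1: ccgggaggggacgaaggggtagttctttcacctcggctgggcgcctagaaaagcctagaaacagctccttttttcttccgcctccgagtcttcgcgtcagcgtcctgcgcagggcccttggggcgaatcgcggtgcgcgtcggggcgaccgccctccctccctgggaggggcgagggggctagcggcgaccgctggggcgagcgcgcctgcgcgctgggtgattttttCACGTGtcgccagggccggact
The motif lay 27 bases before the start of AMN, 46 before BHLHE41, 128 before SLC7A5 and 20 before HSPE1. It lay 152 bases before MTHFD1L, and the copy before HSPE1 is the same DNA as the copy 86 bases before HSPD1, which starts in the opposite direction. A match is a description of the letters, and binding was not measured in these data.

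Some of the largest rises were in genes close to absent in MYC-OFF, such as POU3F1 and AMN. Others, such as NPW and DDN, were already expressed there. The products of these genes have little in common. In each of the 12 largest, all 13 MYC-ON libraries were above all 13 MYC-OFF libraries, as were 325 genes in all (2.34%). NPW, which encodes the precursor of neuropeptide W, was at 6.38 TPM (3.59 to 19.1) in MYC-OFF and 602 TPM (238 to 1647) in MYC-ON. The rise was 6.12 (SE 0.21, adjusted p = 3.44e-11), 69.6-fold on this scale and 6.42 after rescaling. Its lowest MYC-ON library stood more than 10 times above its highest MYC-OFF library. JAG2, a ligand of Notch receptors, went from 1.08 TPM (0.471 to 2.31) to 61.5 TPM (43 to 101), a rise of 4.95 (SE 0.16, adjusted p = 2.66e-11). The lowest MYC-ON library of JAG2 was far above the highest MYC-OFF library. POU3F1, a POU-domain transcription factor of neural and glial precursors, was at 0.0425 TPM (0 to 0.306) in MYC-OFF, with the lowest library listed at 0, and at 24.8 TPM (11.7 to 43.7) in MYC-ON (4.62, SE 0.19, adjusted p = 1.73e-10). AMN, the membrane partner of cubilin in vitamin B12 uptake, was likewise close to absent before, at 0.357 TPM (0 to 1.13), and at 27.4 TPM (20.7 to 55.6) after (4.49, SE 0.19, adjusted p = 2.10e-10).

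Enzymes of signalling and sugar metabolism stood next in the order. TKTL1, a transketolase-like protein of the pentose phosphate pathway, rose from 1.1 TPM (0.298 to 2.06) to 33.9 TPM (10.1 to 70.4) (4.0, SE 0.25, adjusted p = 1.06e-08). DUSP9, a phosphatase that inactivates MAP kinases, rose from 6.22 TPM (1.07 to 10.5) to 96.7 TPM (59.3 to 183) (3.92, SE 0.23, adjusted p = 7.17e-09). SPHK1, the kinase that makes sphingosine 1-phosphate, rose from 7.68 TPM (4.21 to 14) to 122 TPM (72.8 to 157) (3.67, SE 0.17, adjusted p = 3.92e-10). All 3 had been expressed at low levels in MYC-OFF, and none of their ranges touched. The other 5 rose by 3.18 to 3.5: the theta globin HBQ1, the clotting factor F12, the mTORC2 subunit PRR5, the postsynaptic protein DDN and the cyclic AMP-binding membrane protein POPDC3. F12 was at 8.43 TPM (1.76 to 11.2) in MYC-OFF and 84.7 TPM (51 to 142) in MYC-ON, and DDN at 13.3 TPM (1.58 to 21.5) and 119 TPM (27 to 248). HBQ1 was at 2.22 TPM (0.330 to 7.2) and 33.8 TPM (11.7 to 102), and its reads could in part belong to other globin genes of the cluster.

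**Figure D2:**
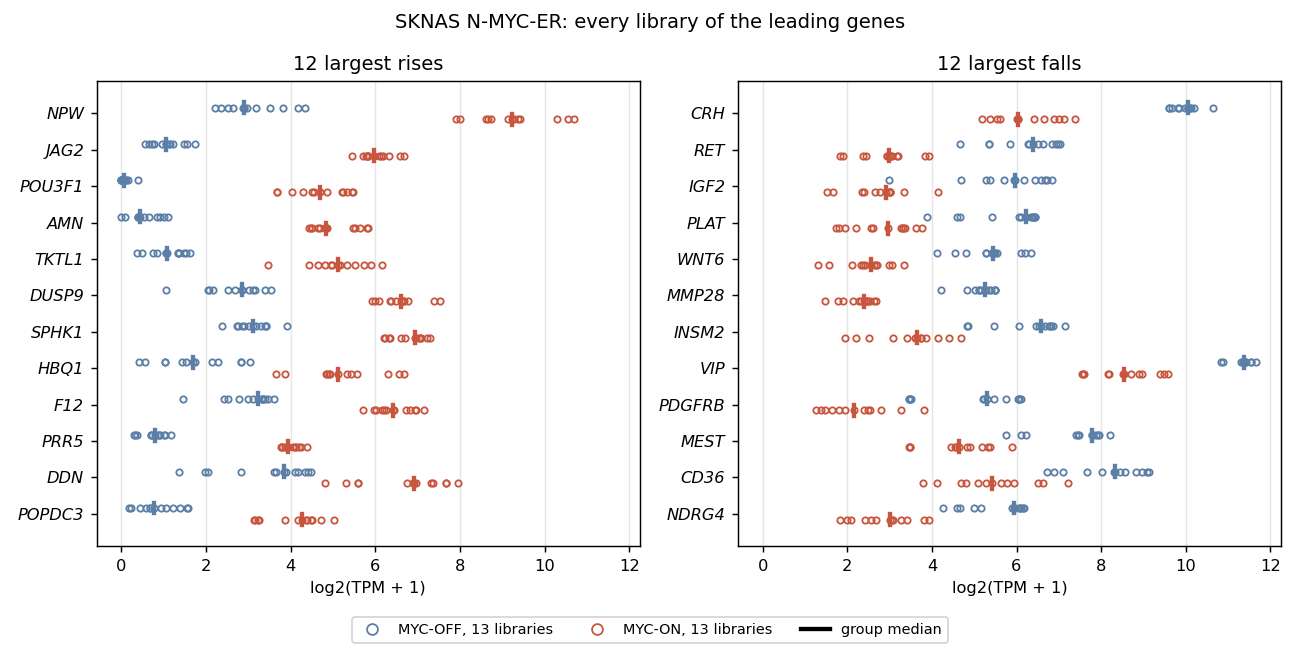
Every library of the 12 genes with the largest rises and the 12 with the largest falls, on the log2(TPM + 1) scale, with open circles for the 13 MYC-OFF and the 13 MYC-ON libraries and a bar at each group's median. All 12 rising genes separate fully, while IGF2, PDGFRB, MEST and CD36 among the falling genes overlap.

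The 12 largest falls were in genes for secreted peptides, receptors, matrix enzymes and other products. CRH, corticotropin-releasing hormone, fell the most, at 1055 TPM (779.8 to 1594) in MYC-OFF and 65 TPM (35.6 to 165) in MYC-ON. The change was -3.73 (SE 0.22, adjusted p = 6.64e-09) and -3.39 after rescaling, with no overlap. RET, the receptor tyrosine kinase for the GDNF family, dropped from 82.5 TPM (24.2 to 129.6) to 6.91 TPM (2.55 to 14.3) (-3.34, SE 0.22, adjusted p = 1.45e-08). IGF2, an insulin-like growth factor, dropped from 61.8 TPM (6.85 to 114) to 6.52 TPM (1.86 to 16.7) (-3.04, SE 0.27, adjusted p = 2.94e-07), although its lowest MYC-OFF library lay within the MYC-ON range. PLAT, the tissue-type plasminogen activator, a secreted protease, dropped from 74 TPM (13.8 to 85.5) to 6.77 TPM (2.34 to 12.7) with no overlap (-2.99, SE 0.24, adjusted p = 1.57e-07). VIP, vasoactive intestinal peptide, was at 2641 TPM (1825 to 3253) in MYC-OFF and 371 TPM (186 to 767) in MYC-ON (-2.79, SE 0.17, adjusted p = 8.44e-09). The zinc finger gene INSM2 went from 94.8 TPM (27.5 to 140.4) to 11.6 TPM (2.86 to 24.8) (-2.84, SE 0.21, adjusted p = 6.77e-08), and the ranges of RET, VIP and INSM2 did not touch. The Wnt ligand WNT6 (from 42.7 TPM (16.5 to 80.1) to 4.88 TPM (1.47 to 9.05)), the matrix metalloproteinase MMP28 (from 37.4 TPM (17.6 to 44.2) to 4.29 TPM (1.77 to 5.37)) and NDRG4 (from 60.9 TPM (18.2 to 71.4) to 7.08 TPM (2.56 to 14.3)) separated fully as well, as did 292 genes in all (2.11%). PDGFRB, the receptor for PDGF-BB, the imprinted gene MEST and the fatty acid transporter CD36 fell by 2.78, 2.74 and 2.71, and their group ranges overlapped at 1 end. Each of these 12 genes was lower in MYC-ON at 13 of 13 CTs, which the rule for naming them required.

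**Figure D3:**
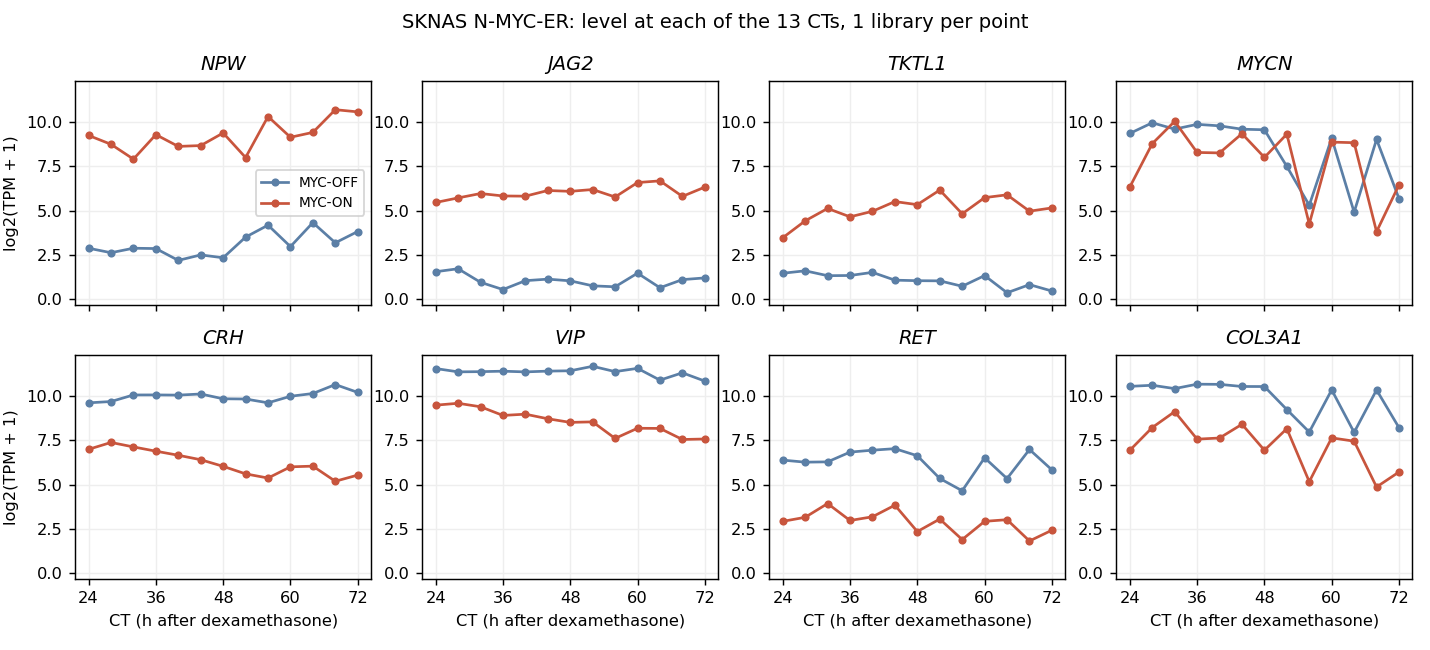
Level on the log2(TPM + 1) scale at each CT from 24 to 72 h after dexamethasone, 1 library per point, for 4 genes in each row and with MYC-OFF and MYC-ON as separate lines. NPW, JAG2 and TKTL1 stay above and CRH, VIP and RET below the MYC-OFF line at all 13 CTs, while the MYCN lines cross.

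Peptide hormones and granins were then taken as a list, chosen after the values of CRH, VIP and NPW had been seen. Of 42 listed genes 15 passed the filter, and 3 of these rose (20%) and 9 fell (60%), beside 13.9% and 24.9% of all genes. CRH and VIP are counted among the falls and NPW among the rises, so these shares are no independent evidence of a direction. The median change of the 15 tested genes was -0.97 on TPM and -0.82 after rescaling. SCG2, a granin of dense-core vesicles, was at 1174 TPM (533 to 1449) in MYC-OFF and 187 TPM (75.2 to 405) in MYC-ON (-2.47, SE 0.18, adjusted p = 5.70e-08). NPY, the cotransmitter of sympathetic neurons, went from 25.7 TPM (16 to 38.5) to 4.38 TPM (1.96 to 8.19), and neither SCG2 nor NPY overlapped. CCK, VGF, SCG3, CHGA and NTS fell by 1.64, 1.17, 1.05, 0.97 and 0.84. Against them stood NPW, its relative NPB (from 4.38 TPM (0.415 to 7.02) to 18 TPM (1.73 to 30.7)) and galanin, GAL (from 13.8 TPM (6.57 to 20.6) to 24.2 TPM (16.2 to 31.2)). NPB and NPW bind the same receptors, and both were higher in MYC-ON, although the change of NPB was 0.37 when only libraries with a median of at least 3.8 were used. The 3 remaining members, GNRH1, NMB and UCN, were at -0.06, 0.16 and 0.09 and were not called.

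Receptors and ligands of the GDNF and neurotrophin families were also listed after RET had been seen. Of 17 listed, 6 passed the filter. RET itself was 1 of the 4 that fell and 1 other rose, beside 24.9% and 13.9% of all genes, and a list drawn up from RET is no independent evidence of its direction. NGFR, the low-affinity neurotrophin receptor, was at 25.6 TPM (1.41 to 34.9) in MYC-OFF and 2.77 TPM (1.69 to 6.47) in MYC-ON (-2.27, SE 0.3, adjusted p = 1.78e-05). GFRA2, the coreceptor that presents neurturin to RET, went from 45.8 TPM (8.55 to 73.7) to 7.5 TPM (1.65 to 19.2). The groups of both overlapped, through low MYC-OFF libraries. The gene that rose was neurturin itself, NRTN, from 3.3 TPM (2.37 to 12.6) to 7.57 TPM (2.22 to 29.7) (0.87, SE 0.21, adjusted p = 0.00313).

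The adrenergic identity list, by contrast, fell nearly as a whole. Of 22 listed genes 15 were tested, 14 fell and 1 rose, beside 24.9% and 13.9% of all genes, and the list's median was -1.28 on TPM and -1.0 after rescaling. HAND1, a basic helix-loop-helix factor of the sympathetic lineage, went from 104 TPM (38 to 131) to 15.7 TPM (4.18 to 30.6) (-2.68, SE 0.22, adjusted p = 1.50e-07). PHOX2A, a homeodomain factor that specifies noradrenergic neurons, went from the level given above to 64.3 TPM (37.5 to 118) (-1.83, SE 0.14, adjusted p = 8.57e-08), and neither of these overlapped. GATA3 went from 66 TPM (23.3 to 82.7) to 14.7 TPM (6.28 to 33.4) (-1.88, SE 0.18, adjusted p = 5.76e-07). HAND2 and ISL1 fell less, by 0.99 and 0.93. The gene that went the other way was GATA2, a factor closely related to GATA3, which rose from 131 TPM (27.3 to 149) to 361 TPM (102 to 693) (1.7, SE 0.24, adjusted p = 4.06e-05) and was higher at 12 of 13 CTs. On the mesenchymal list 9 of 22 tested genes fell and 2 rose (median -0.45 on TPM, -0.13 after rescaling). CD44 and TWIST2 rose, the latter, a mesenchymal transcription factor, from 29.8 TPM (19.4 to 34.6) to 73.6 TPM (28.6 to 90.1), fibronectin (FN1) dropped from 13.3 TPM (11.1 to 20.3) to 4.2 TPM (1.99 to 4.85), and vimentin and PRRX1 were at 0.1 (adjusted p = 0.614) and -0.36 (adjusted p = 0.302) and were not called.

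Notch signalling was listed after JAG2 had been seen, and its parts went in both directions. Of 26 tested genes 7 rose (26.9%) and 10 fell (38.5%), beside 13.9% and 24.9% of all genes. JAG2 is counted among the rises, so their share is no independent evidence. The list's median was -0.34 on TPM and 0.01 after rescaling. Among ligands, DLL3, which acts mainly to inhibit Notch in its own cell, rose with JAG2, from 5.3 TPM (3.07 to 6.72) to 16.6 TPM (13.1 to 24.8) (1.47, SE 0.12, adjusted p = 2.03e-07). JAG1 fell, from 14.8 TPM (2.43 to 23.7) to 4.09 TPM (1.75 to 12.4) (-1.14, SE 0.27, adjusted p = 0.00321). Among receptors, NOTCH3 fell from 9.11 TPM (1.46 to 16.6) to 1.49 TPM (0.411 to 6.39). Among targets, HES1 rose from 20 TPM (11.7 to 24.4) to 78.9 TPM (35.5 to 96) (1.8, SE 0.13, adjusted p = 4.49e-08), HES4 from 0.542 TPM (0.221 to 1.68) to 7.72 TPM (2.75 to 22.8) and the feedback regulator NRARP from 0.430 TPM (0 to 0.561) to 5.38 TPM (2.98 to 8.09). HES6, which counteracts HES1, rose from 11.5 TPM (3.31 to 21.1) to 54.6 TPM (37.4 to 93.7). In all 4 every MYC-ON library was above every MYC-OFF library, whereas another target, HEY1, fell from 60.1 TPM (46.5 to 74.6) to 27.6 TPM (17.1 to 35.7) without overlap.

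Genes of ribosome assembly rose widely, beside 13.9% of all genes that rose and 24.9% that fell. Of 40 ribosome biogenesis genes, all tested, 27 rose and 0 fell, with a median of 0.64 on TPM and 0.99 after rescaling. Fibrillarin (FBL), the methyltransferase of nucleolar RNA, was at 381 TPM (334 to 634) in MYC-OFF and 1235 TPM (771 to 1400.3) in MYC-ON (1.41, SE 0.12, adjusted p = 2.94e-07). Nucleophosmin (NPM1) went from 1396 TPM (823 to 2046) to 3324 TPM (2138 to 4239), RRP9 from 25.5 TPM (18.2 to 32.7) to 83.4 TPM (57.8 to 103) and WDR74 from 77.1 TPM (50.5 to 137) to 233 TPM (137 to 325). None of these 4 overlapped, and their rises were 2.19-fold to 3.11-fold. RNA polymerase I and III subunits gave 9 rises and 0 falls of 29, and the largest was POLR3G, a form of a polymerase III subunit typical of undifferentiated cells, from 10.1 TPM (5.74 to 14.9) to 66.8 TPM (40.7 to 111). POLR1C, a subunit that both polymerases share, went from 51.5 TPM (37.5 to 79.1) to 135 TPM (80.7 to 147).

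The proteins of the ribosome itself moved less. Of 84 cytosolic ribosomal protein genes 12 rose and 0 fell, close to the 13.9% of all genes that rose, and the list's median was 0.18 on TPM and 0.53 after rescaling but -0.07 with library bands in place of CT and -0.11 in the libraries with a median of at least 3.8, so its direction depended on the scaling. The rises were led by RPL22L1 (0.81, SE 0.17, adjusted p = 0.00102) and RPL39L (0.66, SE 0.14, adjusted p = 0.00148), paralogues of standard ribosomal proteins whose reads the quantification may have shared with close copies. Mitochondrial ribosomal proteins rose more widely, with 49 rises and 0 falls of 78 and a median between 0.39 and 0.79 under the 7 ways of scaling or choosing libraries. MRPS17 went from 33.9 TPM (29.9 to 85.5) to 109 TPM (72.2 to 139.6) and MRPL4 from 156 TPM (82.1 to 204) to 328 TPM (249 to 383). Mitochondrial import and mtDNA expression gave 13 rises and 0 falls of 24, with TIMM44, which anchors the import motor, at 52.6 TPM (11.3 to 64.7) and 131 TPM (80.5 to 148) and its partner GRPEL1 at 30.3 TPM (22.4 to 41.8) and 81.5 TPM (52 to 87.9). Chaperonins and their helpers gave 10 and 0 of 13. HSPE1 and HSPD1, the mitochondrial pair that share the CACGTG copy described above, went from 755 TPM (573 to 980.1) to 1717 TPM (1179 to 2182) and from 677 TPM (402 to 809.8) to 1341 TPM (739 to 1939), rises of 1.11 and 0.98.

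Translation and biosynthesis lists rose in part, and the counts of rises and falls below stand beside 13.9% and 24.9% of all genes. Translation factors gave 16 rises and 2 falls of 41, with EIF3B, a scaffold subunit of initiation factor eIF3, at 303 TPM (163 to 349) in MYC-OFF and 568 TPM (534 to 604) in MYC-ON. The inhibitors of eIF4E went apart, with EIF4EBP1 at 1.14 (SE 0.13, adjusted p = 3.40e-06) and EIF4EBP2 at -0.96 (SE 0.25, adjusted p = 0.00601). Cytosolic tRNA synthetases gave 7 and 0 of 20, and purine and pyrimidine synthesis 13 and 1 of 25, with IMPDH1, which commits inosine monophosphate to guanine nucleotides, from 143 TPM (14.7 to 182) to 249 TPM (106 to 469.5). Polyamine genes gave 3 (30%) and 2 (20%) of 10. ODC1, the rate-limiting enzyme of polyamine synthesis, was at 124 TPM (66.7 to 139) and 371 TPM (201 to 484), with no overlap (1.64, SE 0.1, adjusted p = 1.28e-08). AZIN1, which shields that enzyme from its antizymes, fell by 1.1 and the antizyme OAZ2 by 0.74. In serine and one-carbon metabolism 3 rose (21.4%) and 2 fell (14.3%) of 14, not far from the shares of all genes, led by MTHFD1L, a mitochondrial folate enzyme, from 21.9 TPM (18.3 to 25) to 63.2 TPM (53.3 to 83.7). Amino acid transporters gave 4 and 4 of 14 (28.6% each), with the neutral amino acid transporter SLC6A15 at 1.53 and the glycine transporter SLC6A9 at -1.55. Glycolysis gave 7 and 4 of 23, with the lactate carriers opposed, SLC16A1 at 1.31 (adjusted p = 1.1e-04) and SLC16A3 at -1.29 (adjusted p = 8.81e-04). Cholesterol synthesis gave 6 and 0 of 21, with squalene epoxidase (SQLE) from 75.3 TPM (48.7 to 94.3) to 137 TPM (112 to 203), and the ATF4 stress response 7 and 1 of 16, with asparagine synthetase (ASNS) from 45.3 TPM (31.1 to 73) to 120 TPM (74.5 to 215).

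**Figure D4:**
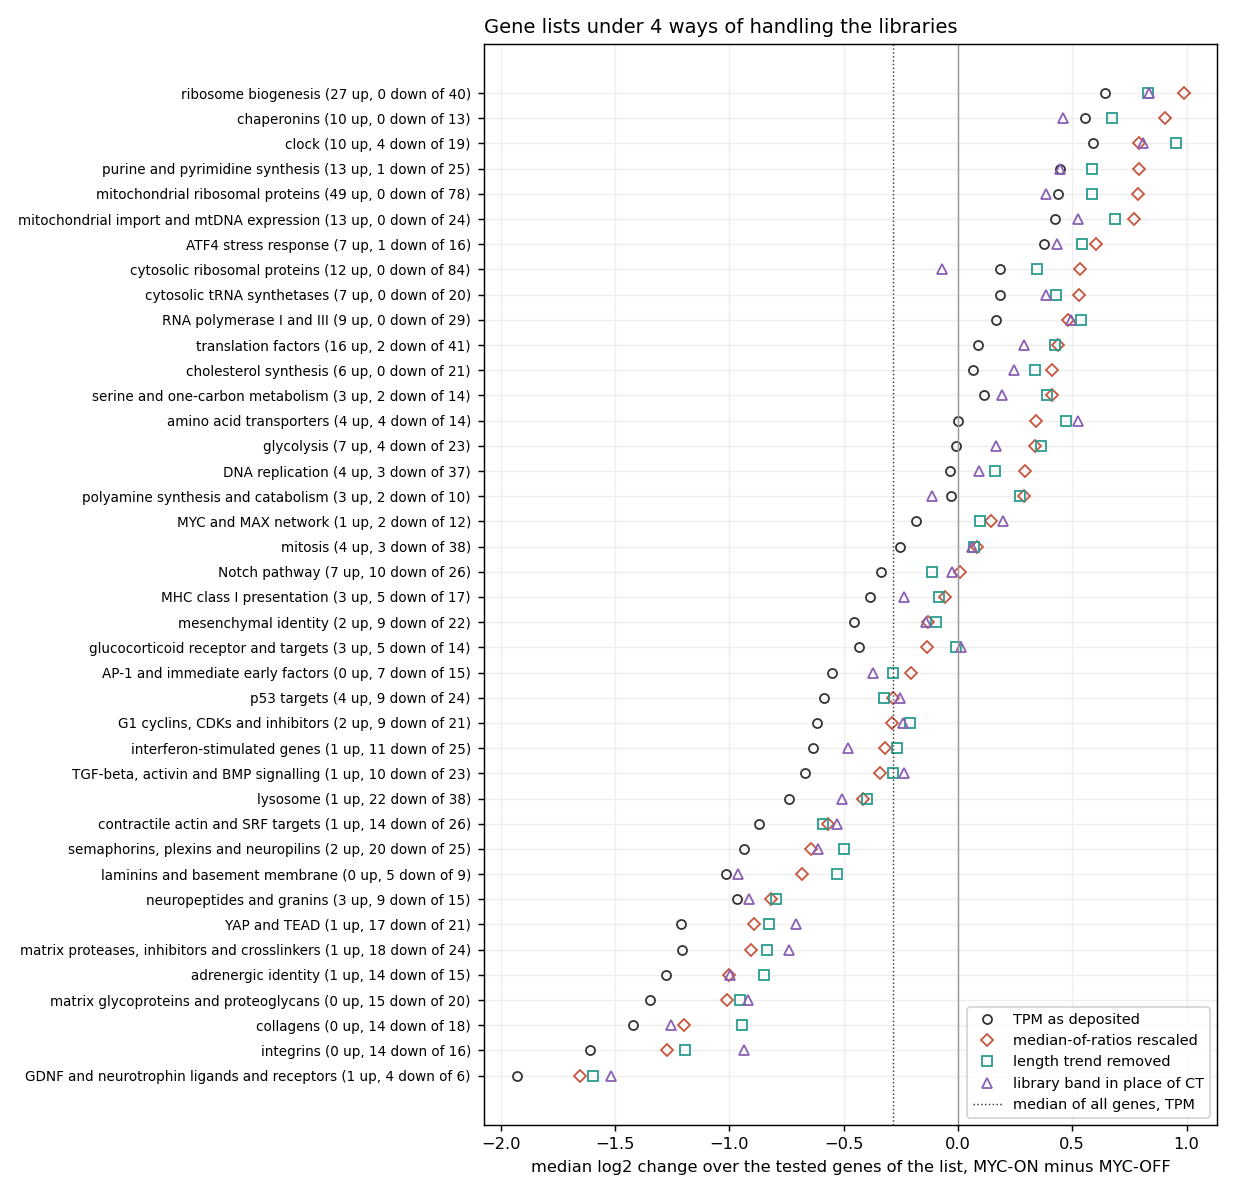
Median log2 change (MYC-ON minus MYC-OFF) over the tested genes of each list with at least 5 of them, under 4 ways of handling the libraries, with the counts that rose and fell on both scales beside the names and a dotted line at the median of all genes on TPM. Ribosome biogenesis, chaperonins and mitochondrial lists lie right of 0 and integrins, collagens, adrenergic and matrix lists left of 0 under all 4, while lists near 0 change side.

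Matrix and adhesion genes fell widely, beside 24.9% of all genes that fell and 13.9% that rose. Of 18 collagens tested 14 fell and 0 rose (median -1.42 on TPM, -1.20 after rescaling), and of 16 integrins 14 fell and 0 rose (-1.61 and -1.27). COL3A1, a fibrillar collagen chain, was at 1361 TPM (246 to 1617) in MYC-OFF and 188 TPM (28.2 to 553) in MYC-ON (-2.63, SE 0.31, adjusted p = 7.12e-06). COL18A1, a basement membrane collagen, went from 92.1 TPM (30.2 to 119.5) to 19.1 TPM (11 to 35.4). Both overlapped at the low end of MYC-OFF. ITGA8, the integrin subunit that binds nephronectin, dropped from 22.6 TPM (9.37 to 39) to 2.35 TPM (0.540 to 7.28) without overlap, and ITGB5, a vitronectin receptor subunit, from 273 TPM (60.2 to 317) to 49.5 TPM (14.4 to 96.5). Laminins and basement membrane genes gave 5 falls and 0 rises of 9, led by LAMA5 (-2.16, SE 0.18, adjusted p = 2.10e-07), and matrix glycoproteins and proteoglycans 15 and 0 of 20. Decorin (DCN), a collagen-binding proteoglycan, dropped from 183 TPM (97.9 to 264) to 36 TPM (14.7 to 65) with no overlap. MFAP4, a microfibril protein, dropped from 1231 TPM (358 to 1682) to 275 TPM (55 to 594) and thrombospondin 1 (THBS1) from 18.6 TPM (3.77 to 30.6) to 1.9 TPM (0.644 to 7.1). Of 24 matrix proteases, inhibitors and crosslinkers 18 fell, among them the membrane protease MMP14 (from 60.1 TPM (8.92 to 92.4) to 8.07 TPM (3.21 to 24.4)), and 1 rose, the gelatinase MMP9, from 0.127 TPM (0 to 0.465) to 2.1 TPM (1.35 to 3.96). MMP9 separated fully but stayed at low TPM. Transcripts of these lists are long (median 6488.5 bases for collagens and 5856 for integrins), and with the length trend removed the medians were -0.95 and -1.19.

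The cytoskeletal and guidance programmes that accompany adhesion went the same way, with counts that stand beside 24.9% of all genes that fell and 13.9% that rose. YAP and TEAD genes gave 17 falls and 1 rise of 21 (median -1.21 on TPM, -0.89 after rescaling). WWTR1, the coactivator TAZ, fell from 20 TPM (8.43 to 29.6) to 6.95 TPM (4.16 to 15.7), and the GTPase-activating protein ARHGAP29 from 31.3 TPM (4.59 to 68.7) to 5.43 TPM (1.28 to 23). The rise was TEAD4, one of the DNA-binding partners of YAP and TAZ, from 11.7 TPM (7.11 to 16.3) to 44.4 TPM (35.1 to 53.6) with no overlap (1.84, SE 0.12, adjusted p = 1.63e-08). Contractile genes gave 14 falls and 1 rise of 26, with tropomyosins opposed, TPM1 at -1.55 (adjusted p = 4.57e-07) and TPM2 at 1.08 (adjusted p = 1.72e-04). Semaphorins, plexins and neuropilins gave 20 falls and 2 rises of 25. The coreceptors of this family differed in direction: NRP1 dropped from 63.5 TPM (17 to 100.3) to 11.9 TPM (5.2 to 33.2) (-1.92, SE 0.23, adjusted p = 7.26e-06), while NRP2 rose from 1.41 TPM (0.157 to 3.62) to 10.3 TPM (5.89 to 35) (2.5, SE 0.16, adjusted p = 1.11e-08) with every MYC-ON library above every MYC-OFF library. TGF-beta, activin and BMP genes gave 10 falls and 1 rise of 23. Their median was -0.67 on TPM and -0.34 after rescaling, but -0.07 with the library median as a covariate. BMP4 fell from 11.4 TPM (1.9 to 16.9) to 1.78 TPM (0.0961 to 3.84), and ID3, a target of BMP signalling, rose from 229 TPM (97.2 to 335) to 331 TPM (236 to 454). AP-1 and immediate early factors gave 7 falls and 0 rises of 15 (median -0.55 on TPM, -0.20 after rescaling), led by FOSL2 (-1.36) and KLF6 (-1.28).

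Lysosomal genes fell as a group, with 22 falls and 1 rise of 38 (median -0.74 on TPM, -0.41 after rescaling). The cathepsin CTSB went from 431 TPM (189 to 534) to 95.4 TPM (47.9 to 234) (-1.86, SE 0.16, adjusted p = 2.94e-07), CTSD from 474 TPM (124 to 579) to 185 TPM (136 to 265) and the membrane protein LAMP2 from 31.7 TPM (8.27 to 44.4) to 10.9 TPM (3.12 to 23.7). The cathepsin CTSL was the one that rose, at 97 TPM (87.7 to 106) and 120 TPM (104 to 136) (0.31, SE 0.07, adjusted p = 0.00267), a small change that was positive at 13 of 13 CTs. Interferon-stimulated genes gave 11 falls and 1 rise of 25, with IFIT2 at -1.21 and IFITM3 at 0.34. MHC class I presentation gave 5 falls (29.4%) and 3 rises (17.6%) of 17, near the 24.9% and 13.9% of all genes. In it the peptide loading protein TAPBP fell by 1.01 and PSMB10, a subunit of the immunoproteasome, rose from 82.8 TPM (60.4 to 215) to 290.1 TPM (151 to 636).

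The cell cycle lists were mixed, and their counts stand beside 13.9% of all genes that rose and 24.9% that fell. Inhibitors of G1 kinases (CDKN1A, CDKN1B, CDKN1C, CDKN2B, CDKN2C and CDKN2D) fell, among them CDKN1A (p21) from 27.7 TPM (5.46 to 53) to 5.37 TPM (2.01 to 7.43) (-2.16, SE 0.21, adjusted p = 6.62e-07), CDKN2B (p15) from 16.7 TPM (4.42 to 19.7) to 3.41 TPM (1.15 to 6.18) and CDKN1C (p57) from 4.49 TPM (3.59 to 6.46) to 0.746 TPM (0.0375 to 1.54). CDKN1C separated fully, and the other 2 overlapped through the lowest MYC-OFF libraries. The G1 list as a whole gave 9 falls and 2 rises of 21, the rises being the cyclins CCNE1 (0.63) and CCND1 (0.52), and RB1, RBL2 and E2F2 made up the falls. Of 24 p53 targets 9 fell and 4 rose, with TP53INP1 from 4.15 TPM (1.04 to 6.25) to 0.335 TPM (0.102 to 0.985) and TRIAP1, an inhibitor of apoptosis, from 68.6 TPM (57.5 to 94.8) to 177 TPM (135 to 217). DNA replication genes gave 4 rises and 3 falls of 37 and mitotic genes 4 and 3 of 38, both under the shares of all genes. Their medians, -0.03 and -0.25 on TPM, were 0.29 and 0.09 after rescaling, so no direction of these lists was fixed by the data. MKI67, the proliferation marker, was at 20.9 TPM (3.27 to 35.8) and 8.26 TPM (2.43 to 23.8) (-0.84, SE 0.32, adjusted p = 0.0376), and the change was -0.04 with the library median as a covariate.

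The remaining lists were small, and their counts stand beside 13.9% of all genes that rose and 24.9% that fell. Of 19 clock genes tested 10 rose and 4 fell, and the repressor BHLHE41 (DEC2), whose promoter is shown above, went from 2.69 TPM (0.715 to 4.65) to 15.7 TPM (6.62 to 50) without overlap (2.18, SE 0.24, adjusted p = 2.99e-06). Of 14 glucocorticoid receptor genes and targets 3 rose and 5 fell, and TSC22D3 (GILZ), a direct target of the receptor, went from 10.3 TPM (1.9 to 12.7) to 31.6 TPM (5.36 to 37.2). Of 12 genes of the MYC and MAX network 1 rose (8.33%) and 2 fell (16.7%), both under the shares of all genes. MXI1, a MAX partner that represses E-boxes, went from 20.4 TPM (6.62 to 36.3) to 51.1 TPM (22.6 to 129.9) and MXD3, of the same family, from 25.2 TPM (11.7 to 37.5) to 10.8 TPM (7.52 to 13.9). The third was MYC itself.

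Whether the difference between MYC-ON and MYC-OFF widened or narrowed over the 13 CTs was tested as a linear time term. Of 13868 genes, 2 passed on TPM and 2 after rescaling (0.0144% each), against 591 and 991 at an unadjusted p of at most 0.05, and none passed on both. CRH fell further with time, by 1.23 per 24 h (adjusted p = 0.0132, and 0.0504 after rescaling). HBA1, a globin whose reads cannot be assigned with certainty because a near-identical copy lies beside it, rose by 1.81 per 24 h (adjusted p = 0.0132, and 0.0526 after rescaling). After rescaling the 2 genes were TKTL1 at 1.17 per 24 h (adjusted p = 0.00635, 0.676 on TPM) and EPHA8 at 1.26 (adjusted p = 0.00291, 0.267 on TPM). The number that passed on TPM was 0 without the CT28, the CT32 or the CT72 pair, 1 without the CT24, the CT64 or the CT68 pair and 2 without any other pair.

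SHEP N-MYC-ER, the other neuroblastoma line of the series, served to ask where SKNAS differed, with 52 libraries of the same CTs in 2 series and a line by condition term. The SKNAS change was at least 1.5-fold above the SHEP change for 500 genes (3.61%) and below it for 1285 (9.27%) on both scales, and 1117 of the genes that were called 1.5-fold on both scales in SKNAS were among them. Many of the leading genes were at or near 0 TPM in SHEP, where no fall could be seen, so that for those that fell in SKNAS the difference between lines restates the SKNAS change. CRH, RET, IGF2, HAND1 and PHOX2A were each listed at a median of 0 TPM in SHEP in both conditions, and JAG2, AMN, DUSP9 and TKTL1 at under 0.2 TPM, and their changes there lay between -0.03 and 0.2. In SHEP, NPW was at a median of 0.960 TPM in MYC-OFF and 1.24 in MYC-ON, a difference between lines of 6.01 (SE 0.27, adjusted p = 1.13e-21).

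For some genes the change was in opposite directions in the 2 lines. NRP2 rose in SKNAS, while in SHEP it was at a median of 149.9 TPM in MYC-OFF and 102 in MYC-ON (difference between lines 3.01, SE 0.12, adjusted p = 1.80e-23). MMP9 was at 4.68 and 1.21 in SHEP (2.79, SE 0.11, adjusted p = 2.14e-23). The SKNAS MYC-ON median of NRP2 stayed below both SHEP medians, and that of MMP9 lay between them. GAS7, an actin regulator of neurite growth, fell in SKNAS from 16 TPM (3.93 to 28.5) to 3.48 TPM (1.39 to 12.6), and was at 0.0474 and 2.2 in SHEP (difference -3.27, SE 0.23, adjusted p = 1.54e-15). TRIM54, a muscle RING finger protein, fell from 13.7 TPM (8.22 to 19.4) to 2.77 TPM (2.01 to 3.37) in SKNAS and was at 0.485 and 2.23 in SHEP (-3.07, SE 0.12, adjusted p = 2.19e-23). DUSP6, a phosphatase of ERK, fell from 57.8 TPM (13.5 to 88.4) to 15.2 TPM (6.6 to 42.9) and was at 6.3 and 11.3 in SHEP. CDKN1A was not one of these. It was far higher in SHEP, at 679 and 676 TPM, where its change was 0.01, so that the difference between lines was -2.17 (SE 0.16, adjusted p = 6.94e-15).

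At the 0.15 threshold on both scales, the SKNAS change was below that of SHEP for 24.2% of all genes tested and above it for 10%. Of the 15 adrenergic genes, 10 were under a median of 1 TPM in SHEP in both conditions (PHOX2A, HAND1, SLC18A2, SOX11 and INSM2 at 0), so their differences between lines restate the SKNAS falls. Of the 5 others, 4 were lower and 1 higher in SKNAS than in SHEP, beside 22.1% and 9.58% of the 12356 genes that reached 1 TPM in SHEP. HAND2 went in opposite directions, with -0.99 in SKNAS and 0.72 in SHEP. Ribosome biogenesis showed 4 higher and 3 lower of 40, with medians of 0.64 in SKNAS and 0.78 in SHEP. Chaperonins showed 0 and 0 of 13, with medians of 0.56 and 0.57. Of 13 integrins that reached 1 TPM in SHEP the change was lower in SKNAS for 7 and higher for 2, and over all 16 tested the medians were -1.61 and -0.79.

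**Figure D5:**
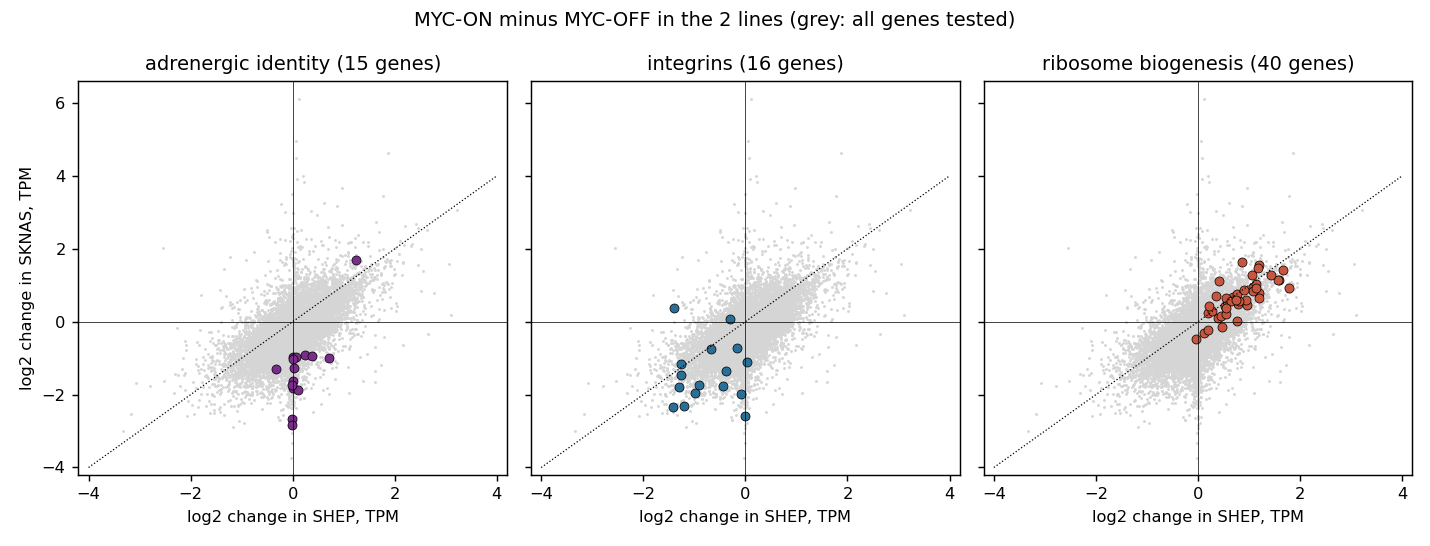
Log2 change (MYC-ON minus MYC-OFF) on TPM in SHEP on the x axis and in SKNAS on the y axis, for the 15 adrenergic, 16 integrin and 40 ribosome biogenesis genes tested (coloured) over all genes tested (grey), with a dotted diagonal of equal change. Adrenergic genes spread downwards near an x of 0, where 10 of the 15 were under 1 TPM in SHEP, and ribosome biogenesis genes lie around the diagonal.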

How the data were processed

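The authors sequenced polyadenylated RNA as paired reads and quantified it with Salmon 1.3.0 against human transcripts, summed to genes with Tximport. The deposited values are TPM, 1 per gene and library, for 60237 genes, and every column sums to 1000000. They keep no read depth. The study gives an average depth over the SHEP and SKNAS series that it sequenced together, but not the depth of single libraries. No counting error can therefore be given. TPM are not counts, so limma 3.58.1 (R 4.3.3) on log2(TPM + 1) stands in for the count model of the study, with condition and CT as factors and Benjamini-Hochberg adjustment over all 13868 genes with a mean of at least 1 TPM over the 26 libraries. Groups, CTs and the pairing by CT come from the labels. The MYC-OFF library of CT76 has no partner and was left out. The same fit was run after dividing TPM by median-of-ratios factors from 12911 genes above 0 TPM in all libraries. A call required a log2 change of 0.15 or more (0.66 for 1.5-fold) with an adjusted p no higher than 0.05. Gene lengths and positions are of GRCh38. Scripts were tested on simulated data. Library measures were compared by exact sign-flip permutation tests.

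The members and gene lists were chosen with earlier results of these data known. Genes were named by rule: the 12 largest changes on TPM per direction among genes called 1.5-fold on both scales and changed the same way in 13 of 13 pairs, up to 3 leading genes and 1 opposed gene of each of 41 lists, the 5 largest differences between lines and the 3 largest time terms per direction, and MYCN, MYC and MYCL (MYCL was under the filter). A few members of the lists are counted but not reported here by name. Other genes in the text (the 3 lists on peptides, Notch and GDNF and neurotrophins, and FBL, NPM1, PHOX2A, HAND2, ISL1, CCND1, VIM and PRRX1, for example) were chosen after their values were seen.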

Additional observations from a re-analysis of the deposited data

Results flagged for a closer look

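For 14 named genes the SKNAS change differed from the SHEP change on both scales and was either among the largest such differences or called in opposite directions in the 2 lines, by the test of the difference itself (limma, line by condition, adjusted over 13868 genes). The differences in log2(TPM + 1), SKNAS minus SHEP, were 6.01 for NPW, 4.89 for JAG2, 4.42 for AMN, 3.84 for DUSP9 and 3.8 for TKTL1, all of which stood at a median under 1.3 TPM in SHEP in both conditions. They were -3.70 for CRH, -3.33 for RET and -3.03 for IGF2, which were at a median of 0 TPM in SHEP. NRP2 (3.01) and MMP9 (2.79) rose in SKNAS and were lower in MYC-ON in SHEP. GAS7 (-3.27), TRIM54 (-3.07), DUSP6 (-2.39) and SESN2 (-0.86) fell in SKNAS and were higher in MYC-ON in SHEP. SESN2, a stress-induced regulator of mTORC1, was at 4.01 TPM (0.746 to 5.43) in SKNAS MYC-OFF and 2.06 TPM (1.01 to 2.73) in MYC-ON, and at 15.2 and 19 in SHEP.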

How the results depend on the processing

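The counts of genes called 1.5-fold moved with the scaling. The 972 higher genes on TPM became 2055 after median-of-ratios rescaling, 1560 with the library median as a covariate, 1681 after quantile normalization and 1825 with the length trend removed. The 3299 lower genes became 1804, 1622, 1760 and 1726 in the same order, 1755 with a pseudocount of 5, 2038 in the libraries with a median of at least 3.8, 1771 with library bands in place of CT and 5236 with array weights. By time window (CT24 to CT36, CT40 to CT56 and CT60 to CT72, each with fewer samples) it was 634, 436 and 76 higher and 2189, 725 and 74 lower on TPM, and after rescaling 1799, 898 and 555 higher and 1532, 905 and 607 lower. Of the 1804 lower genes called on both scales, 1194 were also called with the library median as a covariate and 1033 in all 4 further fits. The time term gave 2 genes on TPM, 26 with the library median as a covariate and 4 with the length trend removed. The line difference gave 501 higher and 2404 lower genes on TPM, 1065 and 1286 after rescaling and 1046 and 1069 with the length trend removed. Among genes that reached a median of 1 TPM in SHEP it gave 356 and 1880 on TPM. This limit, the library bands and the removal of the length trend were chosen after seeing the data. The change of MYCN reversed to 0.65 with the library median as a covariate, 0.16 with library bands and 0.029 in the libraries with a median of at least 3.8. The first and last time windows hold equally many CT pairs, although their counts differ. The cause of these shifts was not tested.

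Leaving out each CT pair in turn gave 927 to 1029 higher and 2750 to 4229 lower genes on TPM, 1869 to 2435 and 1664 to 2048 after rescaling, 925 to 1029 and 1659 to 2048 on both scales, 0 to 2 for the time term, and -0.477 to -0.323 for the difference of the library median (exact p from 0.0137 to 0.0791). Without the replicate block, that is without pairing by CT, it was 947 higher and 3075 lower on TPM and 1964 and 1781 after rescaling. Deviations of same-CT libraries from their group means correlated at 0.06 in the median (-0.55 to 0.83 over 13 pairs), and 2 of 13 MYC-OFF libraries correlated best with the MYC-ON library of their own CT, so the pairing rests on the labels. Of 147 named genes with a direction, 147 kept direction and call after rescaling, as the rule on both scales requires, 146 with the length trend removed, 143 with library bands, 142 with the library median as a covariate and 138 in the libraries with a median of at least 3.8. The medians of 6 of 43 lists changed sign after rescaling and of 8 with the library median as a covariate.

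Depth per library is unknown, and 1 series per condition of this line was analysed here.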
